A study of Mus musculus with 2 samples.

Results

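Cluster 1 is one of the 12 clusters, numbered 0 to 11, into which the submitters divided cells of mouse colon epithelium, and it was taken here as the column headed 1 of their table of average expression by cluster. It holds 398 of 3082 cells (12.9%) and has the working name Clu-positive intermediate colonocytes. All cells belong to 1 group, from the irradiated colon of C57BL/6 mice of wild-type genotype taken at 2 weeks, sequenced as 2 single-cell RNA libraries. The study's title is about grafting colonoids (cultured mini-guts of colon epithelium) to treat radiation proctitis, and the labels do not say which cells, if any, descend from a graft. Unirradiated colon was not analysed here, and the labels give neither the sex, age and number of the animals nor the radiation dose. The columns name clusters and no library or animal, so each value is 1 average over the pooled cells without a replicate. No test was possible, differences are described by size, and intervals cover counting error only. Because the clustering itself used gene expression, differences between clusters describe them and are not independent evidence.

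Colonocytes are the absorptive cells of the large intestine, which arise from stem cells at the base of the crypts and take on transport, mucus-layer defence and butyrate-burning functions as they move to the surface. After injury, surviving mouse intestinal cells can pass through a state marked by Clu, which encodes the secreted chaperone clusterin, and by Ly6a, which encodes the surface protein Sca-1, before normal crypt organisation returns. Both genes are low in the undamaged crypt.

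Levels are the authors' mean UMIs per 10000, where a UMI is a tag that marks 1 captured RNA molecule and every cell was scaled to 10000. The median UMI total of the cells whose total could be read was 16267 in cluster 1, 12120 in cluster 3 and 11963 in cluster 4. Folds were computed with 0.1 added to each level, among genes at 1 or more per 10000 in either cluster compared, and a gene is called higher or lower from 2-fold. Adding 0.1 understates the fold of genes at low levels. A list gene that reached the minimum only in the cluster where it was high had to differ, so the median over all measured genes of a list is given beside that over the genes compared.

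Clu stood at 14.5 per 10000 in cluster 1 (95% counting interval 14.1 to 14.9), at 23.6 in cluster 4, at 3.24 in cluster 2, at 3.21 in cluster 6 and at 1.92 in cluster 7. In cluster 3 it stood at 0.843 (0.747 to 0.949), and the other 6 clusters ranged from 0.0885 to 0.65. Clu was therefore second highest in cluster 1, and well apart from the cluster next in order. Ly6a averaged 10.7 in cluster 1, with 3.80 in cluster 3 and 27.3 in cluster 4. For this gene cluster 8 was close behind, at 9.56. Epcam, an adhesion protein of epithelial cells, averaged 29.0 in cluster 1, with 24.5 in cluster 3 and 37.6 in cluster 4, and was at 3.83 and 2.89 in the immune clusters 5 and 10. All 12 markers on a list of epithelial genes were measured, and they summed to 353 per 10000 in cluster 1, 352 in cluster 3 and 379 in cluster 4. Of 25 measured markers of absorptive colonocytes, 14 stood at 1 or more per 10000 in cluster 1, Slc9a3, a sodium and proton exchanger, was at 0, and the list summed to 280.5 in cluster 1, 320 in cluster 3 and 604 in cluster 4. Lypd8 alone gave 223 of the sum in cluster 1, and the highest sum was 883, in cluster 8.

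Some defining genes of other cell types were at 0 in cluster 1, and others on the same lists were not. The T-cell genes Cd3e, Cd3g and Cd3d, the B-cell gene Cd79a, the macrophage genes C1qa and C1qc, the mast cell gene Cpa3 and the tuft cell gene Trpm5 were at 0, which allows up to 0.00838 per 10000. The 12 neutrophil markers summed to 2.59 in cluster 1, with 20.6 in cluster 3 and 6.60 in cluster 4, and ranged from 1.27 to 53.8 in the other clusters except cluster 5, where they summed to 1161. The 16 goblet cell markers summed to 20.5 in cluster 1, 30.5 in cluster 3 and 14.0 in cluster 4, far below the 1061 of cluster 0. Agr2, a secretory pathway enzyme, made up 8.99 of the sum in cluster 1, and Muc2, the goblet cell mucin, stood at 0.785. The tuft cell list summed to 2.80 in cluster 1, of which Cd24a, a surface protein of many epithelial cells, gave 1.76, and the macrophage and dendritic cell list summed to 1.06, of which Cd74 gave 0.541. Cell cycle genes were low: Mki67, a protein of dividing cells, averaged 0.0295 in cluster 1, against 1.47 in cluster 7. The stem cell gene Lgr5 averaged 0.00144 in cluster 1 and Ascl2 averaged 0.00337, both under the limit that 0 allows, with 0.115 and 0.206 in cluster 7. The summed level of the list of 15 measured stem cell genes was 3.69 in cluster 1, and Prom1, which mature epithelium also expresses, made up 1.75 of it.

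**Figure D1:**
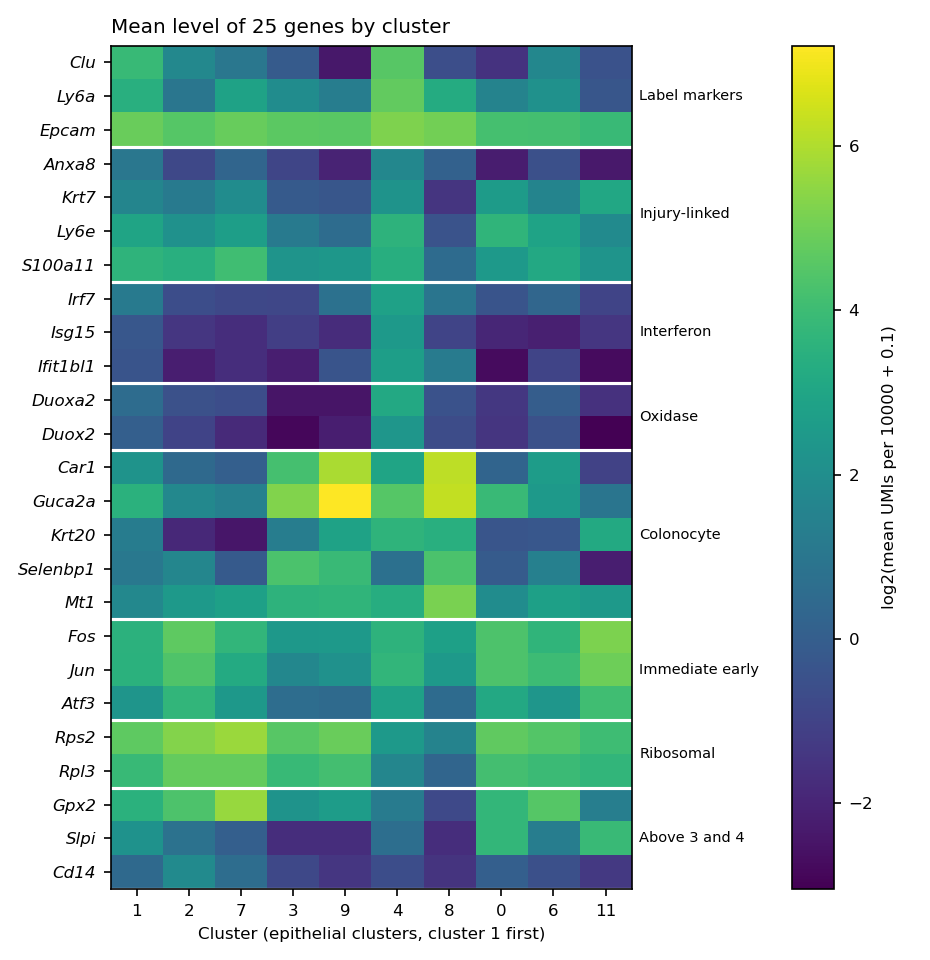
Mean level of 25 genes (rows) in the 10 epithelial clusters (columns, cluster 1 first), as log2 of mean UMIs per 10000 plus 0.1, with each square an average over the cells of a cluster. Clu at 14.5 in cluster 1 is exceeded by 23.6 in cluster 4 alone, and in most rows cluster 1 has a middle shade.

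No gene was as much as 1.5-fold higher in cluster 1 than in every other cluster. Of the 1430 genes at 1 or more per 10000 there, 27 (1.89%) had their highest value of the 12 clusters in cluster 1. The largest excess over the next cluster was 1.25-fold, for Gsta1, a glutathione transferase, at 1.36 in cluster 1 and at most 1.07 elsewhere. The others included Amdhd2, an enzyme of amino sugar breakdown, at 1.14 in cluster 1 against at most 0.899, and Krt19, a keratin of simple epithelia, at 83.6 in cluster 1 against at most 81.2. Of 3276 genes at 1 or more in some cluster, cluster 1 was highest for 0.824%, the smallest share of the 12, and the shares of the other clusters ran from 2.47% in cluster 2 to 17.2% in cluster 11. Cluster 1 ranked from 3 to 8 among the 12 for 82.1% of these genes, again the extreme of the 12, with cluster 2 next at 76.5%. Its profile was nearest to that of cluster 3 by Spearman's rho across these genes (0.933), followed by cluster 9 (0.907), cluster 4 (0.903) and cluster 2 (0.893). These values run across genes, which are not replicates, and they share the libraries.

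Against the mean of the other 9 epithelial clusters, 13 of 1607 genes (0.809%) were higher in cluster 1 and 83 (5.16%) were lower. Besides Clu, at 14.5 in cluster 1 against a mean of 3.81, the higher genes included Aldh1a3, a retinoic acid-making enzyme, at 1.35 against 0.337, and Wfdc18, a small secreted protein with a protease inhibitor-like domain, at 11.97 against 4.81. They also included Pde9a, a cyclic GMP phosphodiesterase, at 3.31 against 1.37, Capg, an actin-capping protein, at 5.17 against 2.20, and the annexin Anxa8, at 1.96 against 0.799. For Clu, Aldh1a3, Pde9a, Capg and Anxa8 the highest cluster was cluster 4. Wfdc18 was instead highest in the dividing cells of cluster 7, at 14.6. The 10 furthest below the mean were led by hormone genes such as Pyy, at 0.144 in cluster 1 against a mean of 95.7 that cluster 11 sets with 842.

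Set against cluster 3, cluster 1 had more RNA of injury-linked and signal-induced genes and less of several solute carriers and absorptive markers. Of 1578 genes compared, 74 (4.69%) were higher in cluster 1 and 64 (4.06%) were lower, and the median over all of them was a log2 fold of -0.04. The counting intervals of the 2 clusters did not overlap for any of these 138 genes. Overlap was checked only for genes already called, and the same held for every gene called against clusters 2, 4 and 7. It therefore adds nothing to the 2-fold call. Mitochondrially encoded RNA took 6.88% of the UMIs in cluster 1 and 3.70% in cluster 3, and the nuclear RNA Malat1 took 3.79% in cluster 1 and 1.15% in cluster 3. Xist, made in female cells, averaged 1.34 in cluster 1 and 0.0197 in cluster 3, while the Y-linked Ddx3y averaged 0.218 and 0.307. The part these RNAs play in the differences was not tested, and differences between animals cannot be told apart from differences between the clusters.

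On the list of injury and regeneration genes, 6 of 12 compared were higher in cluster 1 than in cluster 3 and 0 were lower, with a median log2 fold of 1.14 (1.005 over all 23 measured). The list holds Clu and Ly6a, which named the cluster, so their place in the count is no added evidence. Of the 12 genes compared, 3 reached the minimum only in cluster 1, so that the minimum fixed their direction. Over all 23 measured, 22 had log2 folds above 0 and 1 below. Besides Clu and Ly6a, Anxa8 averaged 1.96 in cluster 1 and 0.442 in cluster 3. Krt7, a keratin scarce in the normal colon, averaged 2.98 in cluster 1 and 0.816 in cluster 3. Like Clu, both were under the minimum in cluster 3. Ly6e, a relative of Ly6a, stood at 7.59 in cluster 1 and 2.11 in cluster 3, while the calcium-binding protein gene S100a11 was at 12.2 and 4.72. S100a6 ran the other way by less than 2-fold, at 104 in cluster 1 and 123 in cluster 3. Genes of 2 growth factors were higher as well: Areg, which encodes the EGF receptor ligand amphiregulin, averaged 4.03 in cluster 1 against 0.787 in cluster 3, and Hbegf, another ligand of that receptor, averaged 4.03 against 1.46. Areg was under the minimum in cluster 3, so that the minimum fixed its direction. The list of EGF ligands and receptors had a median log2 fold of 1.29 over 4 genes compared (0.23 over all 13 measured). Of these 4, 3 reached the minimum only in cluster 1. The receptor gene Egfr was at 0.125 in cluster 1 and 0.0916 in cluster 3, under the level at which genes were compared.

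Immediate early genes, which cells switch on within minutes of a stimulus and which tissue dissociation is known to induce, were higher in cluster 1 than in cluster 3 for 9 of 14 compared, with a median log2 fold of 1.12 (1.09 over all 21 measured). Of these 14 genes, 4 reached the minimum only in cluster 1, so that the minimum fixed their direction. Over all 21 measured, 20 had log2 folds above 0 and 1 below. Jun averaged 11.4 in cluster 1 and 3.16 in cluster 3, and Fos averaged 11.5 and 5.25. The transcription factor gene Atf3 stood at 4.79 in cluster 1 and 1.44 in cluster 3, while Klf6 was at 7.22 and 2.29. Cluster 1 was not extreme in this: Fos reached 25.2 in cluster 2 and 36.6 in cluster 11. Cholesterol synthesis genes leaned the same way, with 8 of 8 above 0 and a median log2 fold of 0.69 (0.55 over all 20 measured). Only Fdps and Mvd passed 2-fold, at 1.78 and 1.08 in cluster 1 against 0.817 and 0.449 in cluster 3. Of the 8 genes compared, 6 reached the minimum only in cluster 1, Fdps and Mvd among them, so that the minimum fixed their direction. Over all 20 measured, 18 had log2 folds above 0 and 2 below.

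Respiratory chain genes differed by the genome that encodes them, mostly by less than 2-fold. All 30 nuclear genes of oxidative phosphorylation had log2 folds below 0 in cluster 1 over cluster 3, with a median of -0.63, and 1 of the 30, Cox6c, passed 2-fold at 15.1 in cluster 1 against 31.0 in cluster 3. The 9 mitochondrially encoded genes compared all had log2 folds above 0, with a median of 0.74 (0.65 over all 13 measured) and none past 2-fold. Of these 9, 2 reached the minimum only in cluster 1. Cox4i1, a nuclear subunit of cytochrome oxidase, averaged 28.1 in cluster 1 and 49.7 in cluster 3, while mt-Co1, a mitochondrial subunit of the same enzyme, averaged 30.0 in cluster 1 and 15.1 in cluster 3. Fatty acid oxidation genes had log2 folds below 0 for 12 of 12 compared, with a median of -0.45 (also -0.45 over all 18 measured) and none past 2-fold. Of these 12, 2 reached the minimum only in cluster 3. The 30 nuclear genes summed to 329 in cluster 1 and to 536 in cluster 3, the highest of the 12 clusters. Against the mean of the other epithelial clusters, the median log2 fold of these 30 genes was -0.06.

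Several solute carriers and absorptive colonocyte markers were lower in cluster 1 than in cluster 3. Of 9 further solute carriers compared, 6 were lower and 0 higher, with a median log2 fold of -1.08 (-0.56 over all 17 measured): the butyrate and lactate carrier Slc5a8 averaged 1.21 in cluster 1 and 2.67 in cluster 3, and the amino acid carrier Slc6a14 averaged 1.24 and 4.84. Of these 9 carriers, 4 reached the minimum only in cluster 3, so that the minimum fixed their direction. Over all 17 measured, 3 had log2 folds above 0 and 14 below. Of 8 genes of sodium and chloride transport, 4 were lower and 1 was higher, with a median of -0.77 (-0.13 over all 20 measured), and Fxyd4, a regulator of the sodium pump, averaged 1.60 in cluster 1 and 6.11 in cluster 3. Of these 8 genes, 2 reached the minimum only in cluster 1 and 0 only in cluster 3. Absorptive colonocyte markers were lower for 8 of 18 and higher for 1, Guca2b, with a median of -0.76 (-0.48 over all 25 measured). Of these 18 markers, 4 reached the minimum only in cluster 3 and 3 only in cluster 1, so that the minimum fixed their direction. Over all 25 measured, 7 had log2 folds above 0 and 18 below. The carbonic anhydrase Car1 averaged 4.58 in cluster 1 against 18.3 in cluster 3, while Guca2a, which encodes the hormone guanylin, was at 11.2 and 38.6. The selenium-binding protein gene Selenbp1 differed most of these, at 1.97 in cluster 1 against 20.0 in cluster 3. Surface proteins did not share this direction: of 7 surface mucins and CEACAM-family genes compared, 1 was higher and 0 lower, with a median of 0.30 (also 0.30 over all 13 measured). Of these 7, 2 reached the minimum only in cluster 1, so that the minimum fixed their direction. Of 4 genes of the Ly6 family, 2 were higher and 0 lower, with a median of 0.96 (0.10 over all 15 measured). The 2 higher were Ly6a, which named the cluster, and Ly6e, both already counted among the injury and regeneration genes. Krt20, a keratin of differentiated surface cells, averaged 2.28 in cluster 1 and 2.36 in cluster 3.

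The largest deficits against cluster 3 were in genes of neutrophils rather than of epithelium. S100a8 averaged 0.464 in cluster 1 and 7.01 in cluster 3, S100a9 averaged 0.369 and 5.48, and Camp averaged 0.0236 and 2.35. Ngp stood at 0.00103 in cluster 1, which equals 1 UMI in 1 cell, and at 2.81 in cluster 3, which equals 483 UMIs in 1 cell. Leaving the neutrophil list aside, Selenbp1 and the sulfotransferase Sult1a1, at 0.206 in cluster 1 and 2.60 in cluster 3, came first. The part that neutrophil RNA plays in the comparison of these clusters was not tested.

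**Figure D2:**
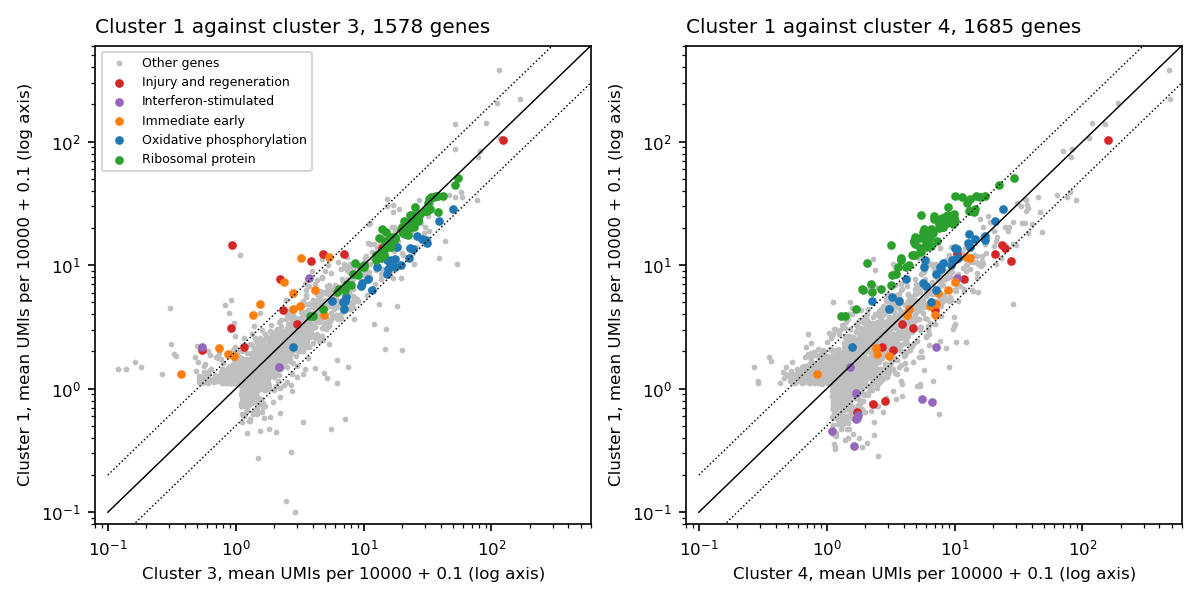
Level of each gene in cluster 1 (vertical axis) against cluster 3 (left) and cluster 4 (right), in mean UMIs per 10000 plus 0.1 on log axes, with equality as a solid line, 2-fold as dotted lines and 5 gene lists coloured. Ribosomal protein genes lie on the line against cluster 3 and mostly past 2-fold above it against cluster 4, while interferon-stimulated genes lie mostly below the line against cluster 4.

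Set against cluster 4, cluster 1 had more ribosomal protein RNA and less RNA of interferon-stimulated genes, of MHC class I genes and of several surface proteins. Of 1685 genes compared, 165 (9.79%) were higher in cluster 1 and 171 (10.1%) were lower, with a median log2 fold of -0.00 over all of them. Counting intervals did not overlap for any of the genes called, which here too adds nothing to the 2-fold call. Mitochondrially encoded RNA took 6.88% of UMIs in cluster 1 and 6.55% in cluster 4. Without mitochondrial, ribosomal protein and Malat1 RNA in the scale, the median over all genes was 0.17 against cluster 4 and 0.08 against cluster 3, a shift to be read against every log2 fold here.

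Of 77 ribosomal protein genes compared, 72 were higher in cluster 1 than in cluster 4 and 0 were lower, with a median log2 fold of 1.40. Together the 81 measured took 14.8% of UMIs in cluster 1, 5.68% in cluster 4 and 15.5% in cluster 3. Rps2 averaged 25.3 in cluster 1, 5.38 in cluster 4 and 23.2 in cluster 3, while Rpl3 averaged 14.6, 3.09 and 14.5 in the same clusters. For this group cluster 1 was thus level with cluster 3, where the median log2 fold was -0.06. Gstm1, a glutathione transferase, differed most upward from cluster 4, at 1.39 in cluster 1 against 0.170 in cluster 4. Next was Nme1, a nucleoside diphosphate kinase, at 1.72 in cluster 1 against 0.252 in cluster 4.

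Interferon-stimulated genes were lower in cluster 1 than in cluster 4 for 8 of 11 compared and higher for 0, with a median log2 fold of -1.57. Of these 11 genes, 8 reached 1 per 10000 only in cluster 4, so that their direction was fixed by the minimum. Over all 24 measured the median was -1.44, and 23 had log2 folds below 0. Isg15, a ubiquitin-like protein, averaged 0.724 in cluster 1, 5.43 in cluster 4 and 0.347 in cluster 3. Irf7, a transcription factor that amplifies the interferon response, averaged 2.08, 7.09 and 0.444 in the same order, and Ifit1bl1, a member of the Ifit family that binds foreign RNA, averaged 0.678, 6.54 and 0.118. For each of these genes cluster 1 thus had the middle value of the 3 clusters. Of the 10 genes on the list that were 2-fold apart between clusters 3 and 4, all 10 had cluster 1 in between, at a median position of 0.38 on a log2 line with cluster 3 at 0 and cluster 4 at 1. Over all 630 genes 2-fold apart there, 539 (85.6%) had cluster 1 in between, at a median position of 0.37. The middle place is thus not particular to interferon-stimulated genes. MHC class I genes and their helpers were lower in cluster 1 than in cluster 4 for 4 of 6, with a median of -1.04 (-0.97 over all 12 measured), and H2-K1, a class I heavy chain, averaged 7.84 in cluster 1 and 14.8 in cluster 4.

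Promoters of 3 of the interferon-stimulated genes that were lower in cluster 1 than in cluster 4 are shown because many such genes share the interferon response element, which the factors induced by interferon bind. Each runs from 250 bases before to 50 bases after the annotated start of the gene on its own strand, from RefSeq on GRCm38.p6, with matches on either strand to GAAA, any 2 bases and again GAAA in capitals, and overlapping matches joined. They lie at chr4:156200769-156201068 (minus strand, Isg15), chr19:34640639-34640938 (plus strand, Ifit1) and chr19:34601919-34602218 (minus strand, Ifit1bl1).
Isg15: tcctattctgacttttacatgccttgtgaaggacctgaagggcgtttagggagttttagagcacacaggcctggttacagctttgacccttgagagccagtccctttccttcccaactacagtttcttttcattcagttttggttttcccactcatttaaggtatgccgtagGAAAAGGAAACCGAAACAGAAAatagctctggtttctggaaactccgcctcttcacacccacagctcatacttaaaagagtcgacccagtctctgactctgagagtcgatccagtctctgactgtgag
Ifit1: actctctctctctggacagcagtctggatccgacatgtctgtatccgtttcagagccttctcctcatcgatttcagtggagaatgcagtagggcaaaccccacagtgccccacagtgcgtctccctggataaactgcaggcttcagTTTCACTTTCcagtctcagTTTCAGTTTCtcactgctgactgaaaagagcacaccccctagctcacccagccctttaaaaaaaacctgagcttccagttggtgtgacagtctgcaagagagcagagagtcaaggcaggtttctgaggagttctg
Ifit1bl1: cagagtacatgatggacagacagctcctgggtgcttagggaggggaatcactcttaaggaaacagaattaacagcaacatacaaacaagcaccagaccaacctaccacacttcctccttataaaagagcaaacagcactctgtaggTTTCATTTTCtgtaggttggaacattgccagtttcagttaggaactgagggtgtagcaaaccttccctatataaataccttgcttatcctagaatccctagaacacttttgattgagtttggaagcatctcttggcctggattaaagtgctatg
The Isg15 window holds 3 overlapping matches, Ifit1 holds 2 and Ifit1bl1 holds 1. Of the 24 genes on the list, 16 had a promoter in the table used, and 10 of these 16 held the motif. Of all 27025 promoters of this length in the table, 943 (3.49%) held it. A match is a description of the sequence and not a measured binding site. Ifit1 itself averaged 0.246 in cluster 1, 1.54 in cluster 4 and 0.0287 in cluster 3.

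Of 4 oxidase genes compared, 2 were lower in cluster 1 than in cluster 4 and 0 higher, with a median log2 fold of -1.14 that was -0.0098 over all 9 measured. Duoxa2 and Duox2, which together form a hydrogen peroxide-producing oxidase at the gut surface, averaged 1.39 and 0.949 in cluster 1, 8.89 and 4.96 in cluster 4, and 0.0817 and 0.0350 in cluster 3. Of this pair, Duox2 reached the minimum only in cluster 4, so that the minimum fixed its direction. Cyba and Noxo1, which code for subunits of related oxidases, were level, at 7.54 and 2.40 in cluster 1 and 7.59 and 2.23 in cluster 4. Of 7 surface mucins and CEACAM-family genes, 4 were lower in cluster 1 than in cluster 4 and 1, Ceacam10, was higher, with a median log2 fold of -1.18 (-0.47 over all 13 measured). Ceacam10 reached the minimum only in cluster 1, so that the minimum fixed its direction. Absorptive colonocyte markers were lower for 10 of 17 and higher for 0, with a median of -1.12 (-0.67 over all 25 measured). Of these 17 markers, 3 reached the minimum only in cluster 4 and 1 only in cluster 1, so that the minimum fixed their direction. Over all 25 measured, 7 had log2 folds above 0, 1 of them by 2-fold, and 17 below. Krt20 averaged 2.28 in cluster 1 and 12.2 in cluster 4. Of the Ly6 family, 4 of 5 were lower, with a median of -1.35 (-0.63 over all 15 measured), among them Lypd8, an inhibitor of bacterial motility, at 223 in cluster 1 and 485 in cluster 4. Of these 5, 1 reached the minimum only in cluster 4. Ly6g, commonly used as a neutrophil marker, averaged 1.32 in cluster 1, 5.66 in cluster 4 and 0.603 in the neutrophil-rich cluster 5.

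Of 15 injury and regeneration genes compared with cluster 4, 4 were lower in cluster 1 and 0 were higher, with a median log2 fold of -0.69 (also -0.69 over all 23 measured). Clu itself was not called, at 14.5 in cluster 1 and 23.6 in cluster 4, and the median of -0.69 is the log2 fold of Clu. Clu and Ly6a named the cluster, so their place in the median and in the count is no added evidence. Of the 15 genes compared, 3 reached the minimum only in cluster 4, so that the minimum fixed their direction. Over all 23 measured, 20 had log2 folds below 0 and 3 above. The called genes included Ly6a, Emp1 and Cd55. Cd55, a complement inhibitor, averaged 0.649 in cluster 1 and 2.19 in cluster 4. Of 14 immediate early genes compared, 0 were called in either direction and 12 had log2 folds below 0, with a median of -0.35 (-0.19 over all 21 measured), and Fos averaged 11.5 in cluster 1 and 12.1 in cluster 4. Oxidative phosphorylation genes had a median of 0.25 with 26 of 30 above 0 and 1 of 30 called, Ndufa4, at 5.06 in cluster 1 and 2.15 in cluster 4.

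**Figure D3:**
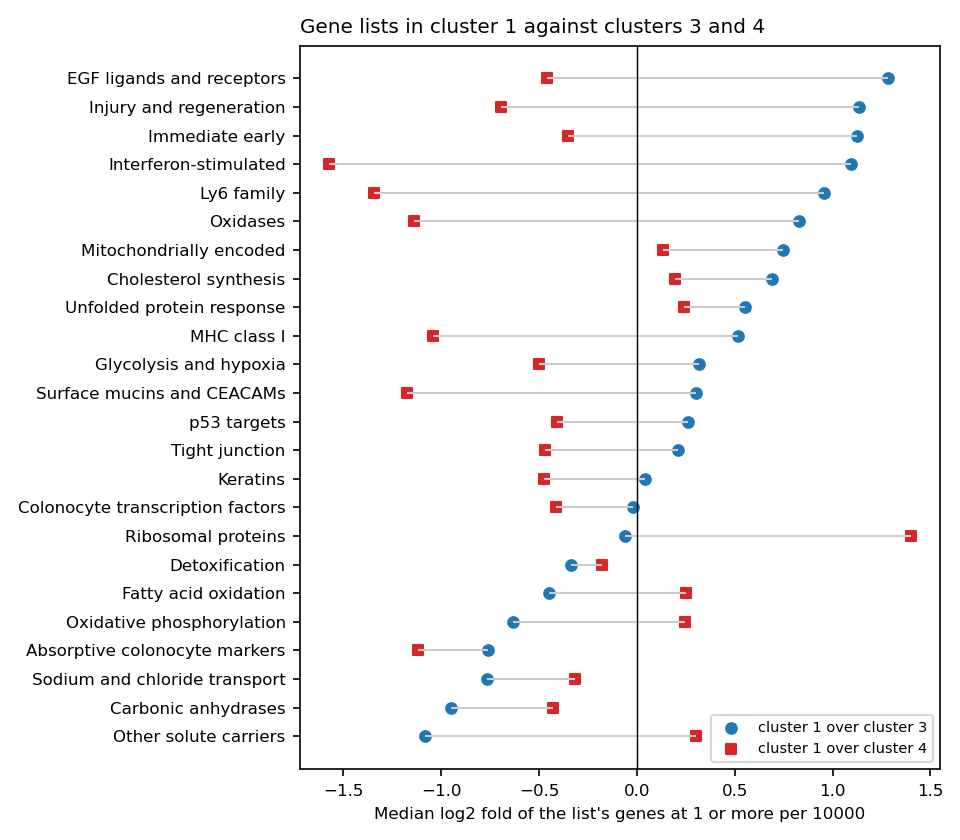
Median log2 fold of gene lists in cluster 1 over cluster 3 (circles) and over cluster 4 (squares), among list genes at 1 or more per 10000 in either cluster compared, for lists with at least 3 such genes. Interferon-stimulated genes lie at 1.09 over cluster 3, from 3 genes, and -1.57 over cluster 4, from 11 genes of which 8 reached the minimum only in cluster 4, while absorptive colonocyte markers lie below 0 against both.

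How far cluster 1 was intermediate was counted gene by gene. Between clusters 3 and 4, 630 genes were 2-fold apart, and for 539 of them (85.6%) the level in cluster 1 lay strictly between the other clusters. The median position was 0.37, on a log2 line with cluster 3 at 0 and cluster 4 at 1. It was 0.45 for the 304 genes higher in cluster 4 and 0.28 for the 326 higher in cluster 3. Of the 630 genes, 225 (35.7%) had cluster 1 nearer to cluster 4. Clusters with no tie to the label also fall between often: cluster 8 did for 63.8% of the same genes, the other single clusters for 39.5% to 59.4%, and the mean of the 7 remaining epithelial clusters for 70.8%. An average cannot tell cells that each lie in between from a mix of cells of either kind.

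**Figure D4:**
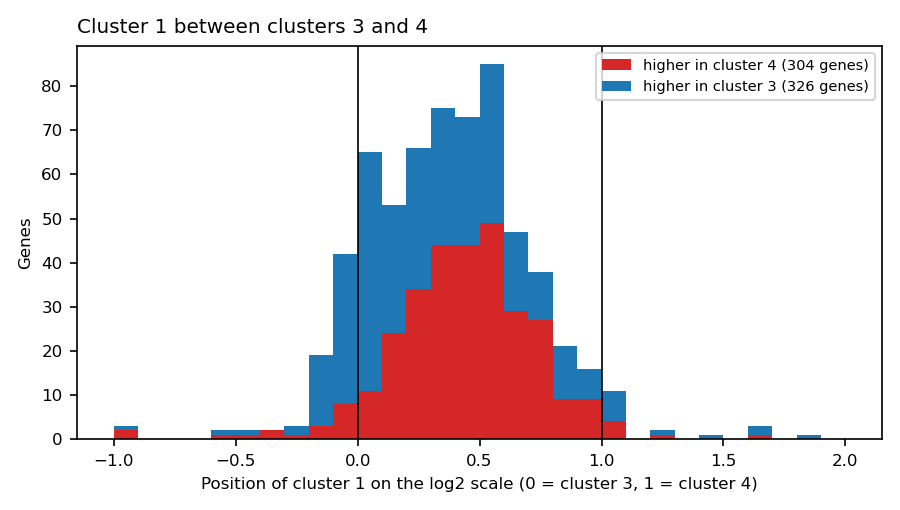
Number of genes by the position of cluster 1 on a log2 line with cluster 3 at 0 and cluster 4 at 1, for the 630 genes 2-fold apart between those clusters, with values under -1 or over 2 put in the outermost bars. Most lie between the vertical lines, with a median of 0.37, and genes higher in cluster 4 sit further to the right (median 0.45) than genes higher in cluster 3 (median 0.28).

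Clusters 3 and 4 were not the pair that bracketed cluster 1 best. Over the 36 pairs that can be made of the other 9 epithelial clusters, cluster 1 lay between clusters 7 and 4 for 1073 of 1102 genes 2-fold apart there (97.4%) and between clusters 2 and 4 for 772 of 798 (96.7%). Cluster 7 holds the dividing cells. The pair of clusters 3 and 4 came in place 10 of 36, and the pair of clusters 2 and 7 came last with 30.2%. The median over the 36 pairs was 74.1% for cluster 1, the highest of the 10 epithelial clusters, and the medians of the others ran from 36.5% to 69.1%. Cluster 1 is thus in the middle of these averages by most pairs, and this middle place is not particular to clusters 3 and 4. The pairs share clusters and genes, so they are not separate measurements.

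**Figure D5:**
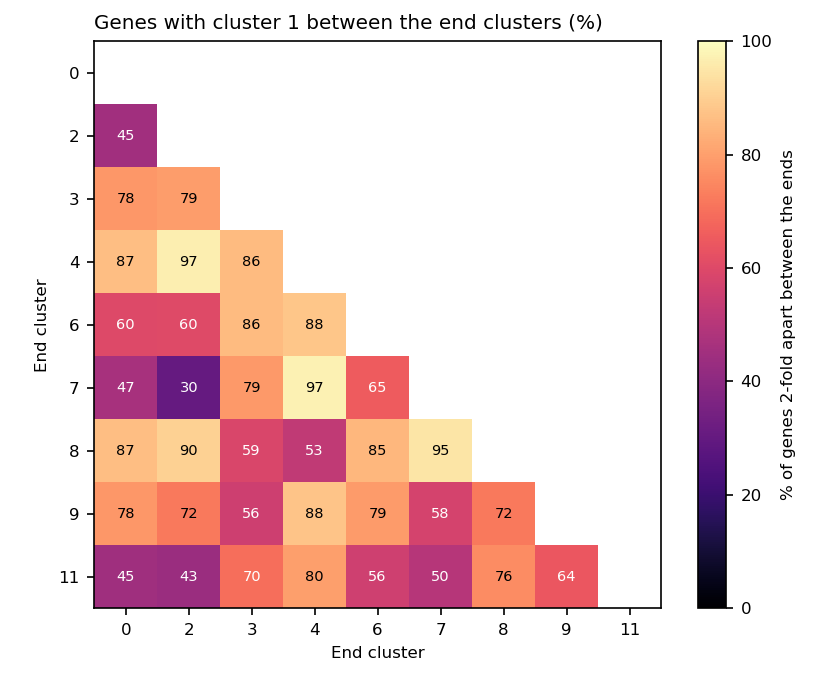
Share of genes (in %) for which cluster 1 lay strictly between the clusters named on the axes, among genes 2-fold apart between those clusters, for the 36 pairs of other epithelial clusters. The pairs of clusters 7 and 4 (97.4%) and 2 and 4 (96.7%) are highest, and the pair of clusters 2 and 7 is lowest (30.2%).

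A few genes fell outside the range of clusters 3 and 4 altogether. Of 1430 genes, 7 (0.49%) were at least 2-fold above both: Myl7, Slpi, Cd177, Fxyd3, Gpx2, Ceacam10 and Cd14. Slpi, an inhibitor of neutrophil elastase, averaged 4.43 in cluster 1, 0.209 in cluster 3 and 1.46 in cluster 4. It was far higher in the neutrophil-rich cluster 5, at 57.3, and in the goblet cells of cluster 0, at 13.2. Cd14, a co-receptor for bacterial lipopolysaccharide, averaged 1.26 in cluster 1 against 0.465 and 0.547 in clusters 3 and 4, and was at 56.8 in cluster 5. Gpx2, a glutathione peroxidase of the crypt base, averaged 11.2 in cluster 1, 4.60 in cluster 3 and 2.22 in cluster 4, below the 49.9 of the dividing cells of cluster 7. The defining neutrophil genes S100a8 and S100a9, at 427 and 442 in cluster 5, were at 0.464 and 0.369 in cluster 1.

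Of 1069 genes, 10 (0.935%) were at least 2-fold below both clusters 3 and 4. They included 2 metallothionein genes, whose proteins bind zinc and copper: Mt1 averaged 3.21 in cluster 1, 11.9 in cluster 3 and 10.04 in cluster 4, while Mt2 averaged 0.440, 3.28 and 2.22 in the same order. For Mt2 cluster 1 was the lowest of the 12 clusters, and for Mt1 it was the lowest but for cluster 5, at 1.74. The acute-phase gene Saa1 averaged 4.76 in cluster 1, 13.03 in cluster 3 and 28.6 in cluster 4, below the 168 of cluster 8. Guca2a, Cyp2c55, Mep1a, Ces2e, Tgm3, Crip1 and Fhl1 made up the rest. For these 7 genes the highest level was in an epithelial cluster other than 1, and Crip1, a small zinc-binding LIM protein, averaged 33.3 in cluster 1, 77.05 in cluster 3 and 89.0 in cluster 4.

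Against clusters 2 and 7, which with cluster 4 bracketed cluster 1 most often, cluster 1 had more RNA of absorptive colonocyte markers. Of 1624 genes compared with cluster 2, 107 (6.59%) were higher in cluster 1 and 97 (5.97%) lower. Absorptive colonocyte markers were higher than in cluster 2 for 10 of 15 and lower for 0, with a median log2 fold of 1.75 (0.89 over all 25 measured), among them Krt20 at 2.28 in cluster 1 and 0.174 in cluster 2. Of these 15 markers, 7 reached the minimum only in cluster 1 and 1 only in cluster 2, so that the minimum fixed their direction. Over all 25 measured, 18 had log2 folds above 0 and 6 below. Immediate early genes were lower for 12 of 18, with a median of -1.27 (-1.13 over all 21 measured), and the 77 ribosomal protein genes had a median of -0.61 with 0 called. Of the 18 immediate early genes, 4 reached the minimum only in cluster 2, so that the minimum fixed their direction. The neutrophil genes S100a8 and S100a9 were at 0.464 and 0.369 in cluster 1 and at 16.2 and 15.5 in cluster 2, and the part they play in this comparison was not tested. Of 1820 genes compared with cluster 7, 191 (10.5%) were higher in cluster 1 and 228 (12.5%) lower. Cell cycle genes were lower than in cluster 7 for 14 of 14 compared, of which 13 reached the minimum only in cluster 7, and over all 22 measured the median was -3.42 with 22 lower by 2-fold. Absorptive markers were higher for 11 of 15 and lower for 1, with a median of 2.15 (1.19 over all 25 measured). Here 9 of the 15 reached the minimum only in cluster 1 and 1 only in cluster 7. Over all 25 measured, 20 had log2 folds above 0 and 4 below. Gsdmc4 and Gsdmc2, of the gasdermin C family, averaged 6.98 and 3.69 in cluster 1 and 0.75 and 0.429 in cluster 7.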

How the data were processed

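The tools named in the submitters' processing notes are Cell Ranger 3.1.0 and Seurat 2.3, and the build named there is mm10. The sources used here do not state how cells were filtered, doublets treated or clusters set. The values that the authors deposited are means of UMIs per 10000 over the cells of each of 12 clusters, for 17044 genes. Each column sums to 10000, as read from the values, and 0 columns went unused. They hold no cell barcodes and no library, so libraries could not be compared.

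Cells per cluster were read from low values, since a gene seen once gives an average of 10000 over the product of the cell number and the UMI total of its cell (whole within a relative 1e-12). Totals given by 2 or more genes were kept, which held for 254 of the 398 cells of cluster 1, with totals from 509 to 38344, and for 2286 of 3082 in all. UMIs behind an average were estimated as the average times the cells and the harmonic mean total, with exact Poisson 95% intervals for counting error alone. A level of 0 allows up to 3 UMIs. The reading of cell numbers and UMI totals and the calling of folds were tested on simulated data. The UMI estimates and the intervals were not.

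Clusters 5 and 10 were left out of the epithelial mean. The members and lists were chosen with earlier results of these data known, and the pairs of end clusters other than 3 and 4 after seeing the data. Named genes are Clu, Ly6a and Epcam, list members, and the 10 most extreme genes of each comparison; genes outside this rule were chosen after their values were seen. Python 3.11.15, numpy 2.4.6, pandas 2.3.3, scipy 1.17.1 and matplotlib 3.10.9 were used. Alternatives changed the pseudocount, minimum level, fold, scale and reference mean.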

Additional observations from a re-analysis of the deposited data

How the results depend on the processing

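Counts of genes past a fold moved with the threshold, as their construction implies, and are given in the order higher and lower than cluster 3, higher and lower than cluster 4, higher and lower than the epithelial mean, above both and below both clusters 3 and 4. With the settings used they were 74, 64, 165, 171, 13, 83, 7 and 10. With a pseudocount of 1 they were 32, 29, 89, 54, 2, 52, 2 and 4. With a minimum of 5 they were 19, 22, 82, 43, 3, 27, 1 and 5, and with a fold of 4 they were 16, 15, 8, 22, 0, 46, 0 and 1. With a fold of 1.5 they were 175, 196, 360, 369, 82, 140, 27 and 23. Without a minimum, the first 7 were 258, 128, 406, 361, 27, 345 and 20. Against the mean of all other clusters, 28 genes were higher and 165 lower.

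Genes highest in cluster 1 numbered 414 without a minimum, 3 with a minimum of 5 and 59 after rescaling without mitochondrial, ribosomal protein and Malat1 RNA, against 27. The share between clusters 3 and 4 was 79.5% with a minimum of 5, 90.4% with a fold of 4 and 82.0% with a fold of 1.5, against 85.6%; with end clusters 2 and 4 it was 96.7% and with 4 and 7 it was 97.4%. The median position was 0.25 with a minimum of 5 and 0.51 with a fold of 4. Lists at least 0.5 from 0 against cluster 3 numbered 12 without a minimum and 10 with a minimum of 5, against 20. Spearman's correlation across genes with cluster 4 was 0.844 with a minimum of 10.

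Of 301 list medians recomputed, 23 moved by more than 0.5, and a further 7 turned sign from at least 0.3 on either side of 0. Without a minimum the moves were toward 0, and the report prints them beside the medians it gives. With a minimum of 5, interferon-stimulated genes against cluster 4 were at -2.23 and absorptive markers against cluster 3 at -1.43, and with a pseudocount of 1 interferon-stimulated genes against cluster 4 were at -0.82. After rescaling, oxidase genes were at 2.09 against cluster 3 and -2.07 against cluster 4. Without a minimum those that turned sign were, against cluster 4, antimicrobial genes (0.078), nuclear RNA (0.17), p53 targets (0.012), solute carriers (-0.0048) and water and guanylin genes (0.33), and, against cluster 3, carbonic anhydrases (0.19). After rescaling it was water and guanylin genes against cluster 3 (0.28). The cause was not tested. Of 636 folds of named genes, 56 crossed 2-fold, and 0 of those past 2-fold turned sign. The pseudocount of 0.01 and the mean weighted by cells moved no count past 1.5 times.

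Recomputing with each library alone was not run, since no column belongs to a library. No paired analysis was possible because each value is 1 average over the pooled cells of both libraries. With 1 average per cluster, spread between animals or cells is unknown, and depth limits only the lowest values, at 0.00838 per 10000 in cluster 1.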

Other observations

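Xist, an RNA of female cells, averaged 1.34 in cluster 1 (1.23 to 1.47), 0.0197 in cluster 3 and 2.99 in cluster 4, and was at 0 in cluster 8. The Y-linked gene Ddx3y averaged 0.218 in cluster 1, 0.307 in cluster 3 and 0.264 in cluster 4, while Eif2s3y averaged 0.422, 0.373 and 0.413 in the same order. Cluster 1 and cluster 4 thus held both kinds of RNA, and the labels do not give the sex of the animals.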
